A study of Mus musculus with 6 samples.

Results

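Kinesins, dyneins and tubulins are the motors and tracks of the microtubule system, and 75 of the 16759 genes measured in the hind leg muscle of trained and untrained mice belonged to them. They were taken by symbol, as every gene in the table whose symbol has Kif followed by a digit or by c, Klc or Tuba, Tubb or Tubg followed by a digit, or begins with Dync1, Dync2 or Dynl. Kifap3 and the Tubgcp genes are therefore not among them. The 75 genes were 13 mitotic kinesins, 14 transport kinesins, 12 other kinesins, 4 kinesin light chains, 5 subunits of cytoplasmic dynein 1, 2 subunits of ciliary dynein 2, 9 dynein light chains, 5 alpha tubulins, 8 beta tubulins, 2 gamma tubulins and Kif1bp. Kif1bp matches the symbol rule but encodes a protein that binds kinesins and is no motor.

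Alpha and beta tubulin pair into dimers that polymerise into microtubules, and gamma tubulin nucleates them. Most kinesins walk towards the plus end of the microtubule, cytoplasmic dynein walks towards the minus end, and both carry mitochondria, vesicles, RNA and proteins. Another group of kinesins builds the spindle and drives chromosome movement and cytokinesis in dividing cells. The nuclei of a muscle fibre do not divide, and its microtubules form a lattice under the membrane and around the nuclei that positions nuclei and organelles and bears mechanical load.

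The RNA came from male C57BL/6J mice that were 8 weeks old at the start. The 3 exercise (EX) mice trained on a motorised treadmill over 6 weeks, in 5 weekly runs of 60 min, covered 22 km each, and were taken 24 h after their final run. The 3 control (Con) mice did not train on the treadmill. All carcasses were perfused with saline, the fat between the muscles was removed, and a piece of hind leg muscle the size of a soybean gave 1 library per mouse. The individual muscle sampled was not given in the sources used here, so a difference between groups in the muscle or region taken cannot be told apart from training.

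Library totals ran from 13845362 to 16240431 estimated read counts on genes, and the 20 most abundant genes took 30.1% to 32.5% of a library. Libraries correlated at r = 0.996 to 0.997 within groups and at 0.991 to 0.992 between groups across genes on the log2 scale, and no library stood apart. Markers of skeletal muscle fibres were abundant in all 6 libraries, at a summed 167230 to 175210 CPM in Con and 181720 to 189930 in EX. CPM is a TMM-scaled count relative to library size, and FPKM, which also divides by transcript length, was used where levels of different genes were compared. A count of 0 in a library allowed up to 3 counts, or 0.188 to 0.215 CPM, a limit that covers counting error only.

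Of the 75 genes, 43 reached a mean of 1 FPKM over the 6 libraries and were tested, and 32 did not. The test was edgeR's quasi-likelihood test over all 10883 genes past that filter, with Benjamini-Hochberg adjustment and a threshold of adjusted p under 0.05. In EX muscle 12 of the 43 genes passed, 8 higher and 4 lower, which is 27.9% against 17.9% of all genes tested, of which 9.11% were higher and 8.8% lower. The genes that rose were the alpha tubulins Tuba4a and Tuba8, the beta tubulins Tubb4b, Tubb2a and Tubb6, the dynein light chains Dynll1 and Dynll2, and the kinesin Kif3c. The genes that fell were the dynein heavy chain Dync1h1 and the kinesins Kif1b, Kif13b and Kif26a, and none of these 4 passed once the trend with transcript length was taken out by offsets, which left 7 higher and 1 lower. The median log2 fold change of the 43 genes was 0.05, beside -0.0009 over all genes tested, and 26 were positive and 17 negative. The libraries of the groups did not overlap in CPM for 16 of the 43 genes, all 12 that passed among them, against 33.7% of all genes tested. EX lay above Con for 11 of the 43 genes and below for 5 of the 43, against 16.7% and 16.9% of all genes tested. Tuba4a, Tuba8, Tubb4b and Tubb6 passed under every one of the 16 alternatives tried. The balance of higher and lower calls differed between alternatives. Over all genes 50.8% of calls were higher, against 51.0% with RLE scaling, 38.0% when the 20 most abundant genes were left out of the scaling, 28.4% with limma on FPKM and 16.8% with limma on TPM, both of which change the test and the unit as well. Among the 43 genes these gave 8 higher and 4 lower, 7 and 5, 7 and 4, and 4 and 5. DESeq2, which called 11.3% of all genes tested, called 7 higher and 2 lower. In bulk muscle a change in the number of cells of a type and a change of RNA per cell cannot be told apart.

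**Figure D1:**
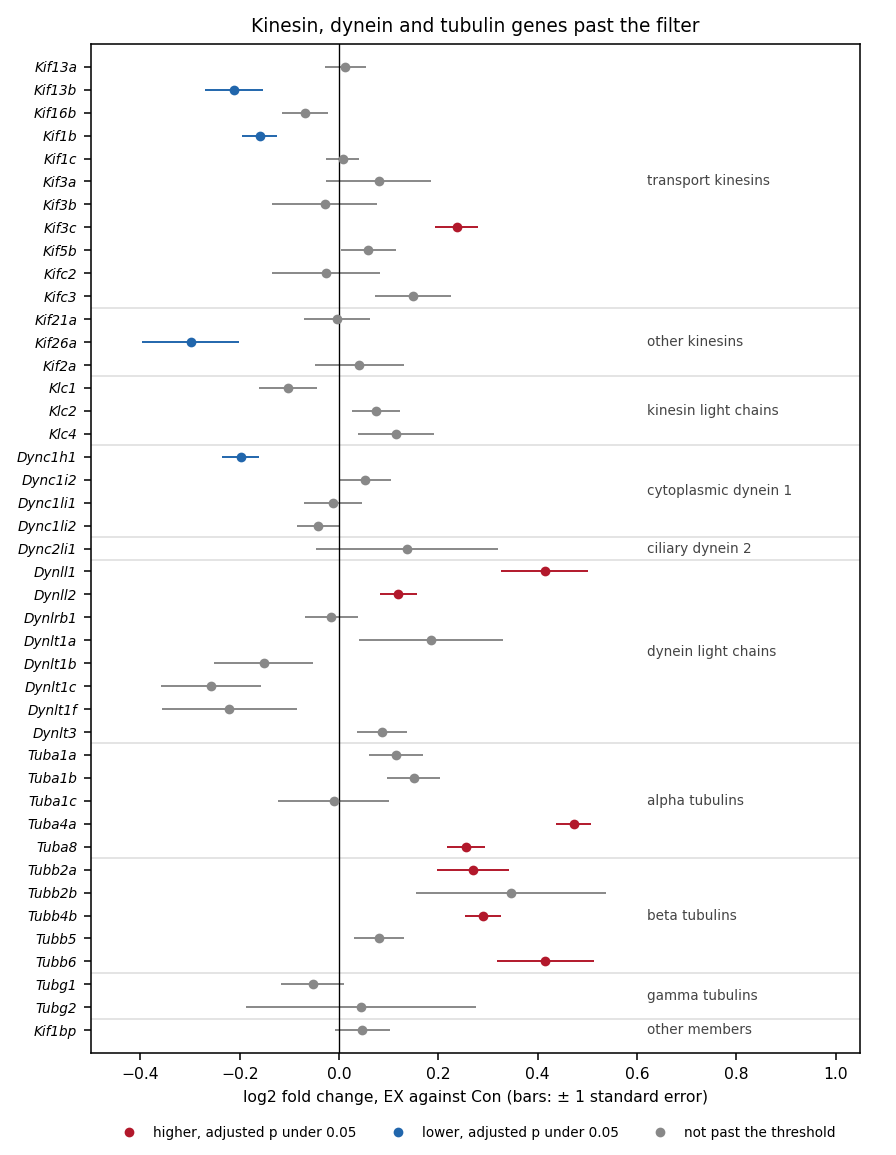
Log2 fold changes of the 43 genes past the filter, EX against Con (n = 3 libraries each), by role; points are edgeR estimates and bars are 1 standard error, coloured where the adjusted p was under 0.05. The 8 genes that rose lie between 0.12 and 0.47 and the 4 that fell between -0.30 and -0.16.

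**Figure D2:**
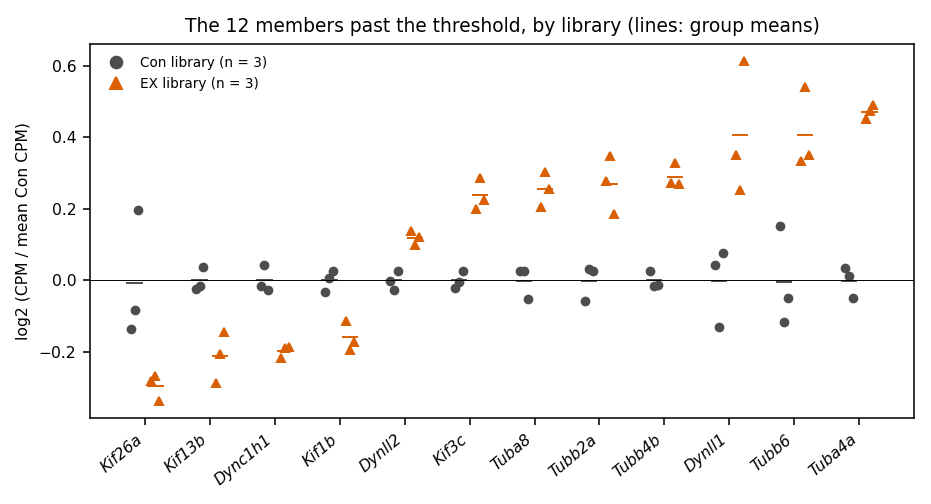
Level of the 12 genes past the threshold in each library as log2 of CPM over the mean Con CPM, circles for Con and triangles for EX, with lines at the group means. For each of the 12 genes all 3 triangles lie outside the range of the circles. By EX group mean Dynll2 is nearest to 0 and Tuba4a highest, at a fitted 0.12 and 0.47, while single triangles of Dynll1 and Tubb6 lie higher.

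Tubulin isotypes differ mainly in the acidic tail at the carboxyl end, where most modifications sit and where motors and other proteins make contact. On most alpha tubulins the last residue is a tyrosine that vasohibins remove and tubulin tyrosine ligase restores. The last 48 coding bases of 3 alpha tubulin genes are given so that the tails can be compared, with the last codon before the stop in capitals. TAC and TAT are the codons for tyrosine. All sequences are from GENCODE M21 on GRCm38, are written on the coding strand and lie in 1 coding exon each, the last of the gene's coding sequence: Tuba1c at chr15:99037959-99038006 (+), Tuba4a at chr1:75215625-75215672 (-) and Tuba8 at chr6:121226029-121226076 (+).
Tuba1c: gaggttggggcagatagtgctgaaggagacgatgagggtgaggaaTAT
Tuba4a: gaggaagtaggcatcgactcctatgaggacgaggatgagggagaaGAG
Tuba8: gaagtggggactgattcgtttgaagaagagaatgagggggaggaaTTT

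Both alpha tubulin genes that rose end in another codon than TAC or TAT, with GAG in Tuba4a and TTT in Tuba8. Tuba1c, which ends in TAT, did not pass the test. The coding sequences of Tuba1a and Tuba1b were 98.3% identical and those of Tuba1b and Tuba1c 97.9%, while Tuba4a and Tuba8 shared 80.8%. The tails were less alike than the rest, with 62.8% identity between Tuba4a and Tuba8 in the last 48 bases against 81.2% before them. The counts of Tuba1a, Tuba1b and Tuba1c were not whole in any library, so reads were split between similar sequences, and their values are uncertain. Those of Tuba4a and Tuba8 were whole in all 6.

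Tuba4a (gene 22145), the most abundant of the 75 genes, held 8532, 9459 and 9209 counts in the Con libraries and 12943, 13023 and 13216 in the EX libraries. Scaled to CPM, Con lay at 612.0, 601.7 and 577.6 and EX at 816.4, 829.2 and 839.2. All EX libraries were above all Con libraries. The log2 fold change was 0.47 (standard error, SE, 0.03, adjusted p = 4.4e-11), or 1.39-fold. Per length, Tuba4a rose from 340.9 ± 6.47 (SD, n = 3) to 454.9 ± 5.35 FPKM.

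Tuba8 (53857), an alpha tubulin of muscle, heart and testis, stood at 245.4, 245.3 and 232.3 CPM in Con and at 278.0, 297.4 and 287.7 in EX. It rose by a log2 fold change of 0.26 (SE 0.04, adjusted p = 1.7e-05), with no overlap. With limma on TPM it was at 0.16 and still passed (adjusted p = 0.014). Its FPKM went from 213.9 ± 4.39 to 245.2 ± 5.93. Tuba1b (22143), one of the isotypes made by most cells, missed the threshold at 0.15 (SE 0.05, adjusted p = 0.0504), although its 42.4 to 48.0 CPM in Con lay below the 49.4 to 51.4 in EX. Tuba1a gave 0.11 (adjusted p = 0.148) and Tuba1c -0.01 (adjusted p = 0.960).

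As a composition, the alpha tubulin family became richer in Tuba4a. Tuba4a made up 54.5%, 54.2% and 53.8% of the summed alpha tubulin FPKM in Con and 58.9%, 57.8% and 58.7% in EX, a difference of 4.29 percentage points with no overlap. The share of Tuba8 was 34.0% ± 0.312 (SD, n = 3) in Con and 31.5% ± 0.569 in EX, so it was smaller although Tuba8 itself rose. The shares of Tuba1a, at 5.12% and 4.31%, Tuba1b, at 5.91% and 5.09%, and Tuba1c, at 0.781% and 0.602%, were also smaller in EX with no overlap. The summed level of the family was 629.0 ± 8.35 FPKM in Con and 777.9 ± 9.08 in EX.

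**Figure D3:**
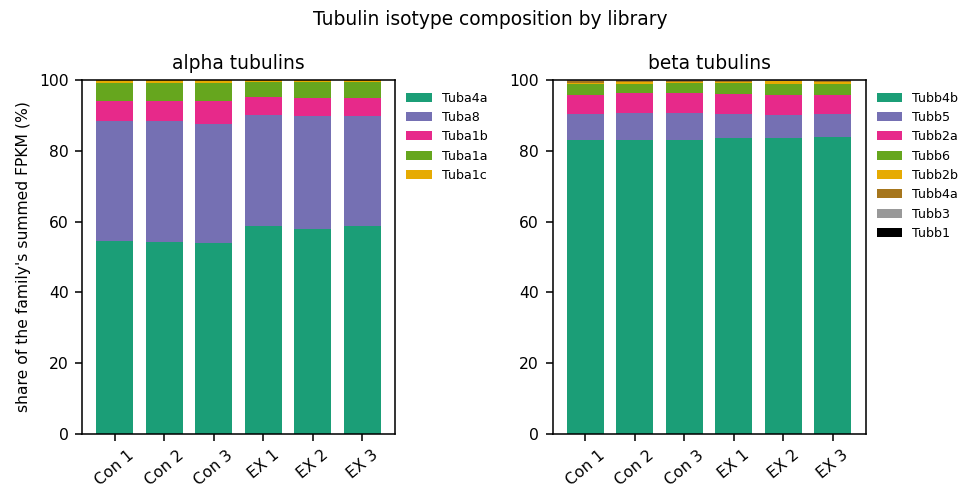
Share of each alpha tubulin gene (left) and beta tubulin gene (right) in the summed FPKM of its family, in percent, as stacked bars for each of the 6 libraries. Tuba4a takes 53.8% to 54.5% of the alpha bars in Con and 57.8% to 58.9% in EX, while Tubb4b takes 83.1% of the beta bars in Con and 83.8% to 84.0% in EX.

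The beta tubulins were shown for the same stretch. The tails of the most abundant gene, Tubb4b at chr2:25222311-25222358 (-), of the near-identical pair Tubb2a at chr13:34074471-34074518 (-) and Tubb2b at chr13:34127474-34127521 (-), and of Tubb5 at chr17:35834985-35835032 (-) are set out here, from the same source and with the last codon again in capitals.
Tubb4b: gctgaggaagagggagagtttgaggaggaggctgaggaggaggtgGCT
Tubb2a: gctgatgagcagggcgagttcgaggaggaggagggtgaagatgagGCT
Tubb2b: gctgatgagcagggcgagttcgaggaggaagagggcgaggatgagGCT
Tubb5: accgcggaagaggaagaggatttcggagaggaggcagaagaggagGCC

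Tubb4b (227613), a beta tubulin of most tissues, rose from 271.9, 264.1 and 264.8 CPM in Con to 322.3, 334.9 and 321.5 in EX. The log2 fold change was 0.29 (SE 0.04, adjusted p = 1.1e-06), and the level per length went from 212.6 ± 2.11 to 249.5 ± 4.15 FPKM. The next beta tubulin by level, Tubb5, was at 19.2 FPKM over all libraries.

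Tubb6 (67951), the class V beta tubulin, was measured at 11.2, 9.29 and 9.72 CPM in Con and at 12.7, 14.6 and 12.8 in EX. Its log2 fold change of 0.42 (SE 0.10, adjusted p = 3.0e-03) was near that of Tuba4a, at a level per length of 8.20 FPKM over all libraries against 397.9 for Tuba4a.

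Tubb2a (22151) rose from 18.0 ± 0.614 CPM to 21.7 ± 1.24, by a log2 fold change of 0.27 (SE 0.07, adjusted p = 8.7e-03) with no overlap. Without EX replicate 2 the adjusted p was 0.060, as it was with DESeq2, and with limma on TPM the value was 0.18 (adjusted p = 0.061). Its coding sequence was 96.5% identical to that of Tubb2b, the counts of both were not whole in any library, and the split between them is uncertain. Tubb2b gave 0.35 with a larger error of 0.19 and an adjusted p of 0.228. Tubb5 (22154), the second beta tubulin by level, had 43.5 to 43.8 CPM in Con and 45.2 to 47.2 in EX, and its log2 fold change of 0.08 did not pass (adjusted p = 0.296). Tubb4a, Tubb3 and Tubb1 lay under the filter, and none was called in the fit without a filter. Tubb3 and Tubb1 are isotypes of neurons and of platelets.

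The beta tubulin composition was led by Tubb4b in both groups. The share of Tubb4b was 83.1% ± 0.0387 in Con and 83.9% ± 0.160 in EX, a difference of 0.743 points with no overlap, and that of Tubb5 was 7.46% and 6.52%, also with no overlap. Tubb6, at 2.81% and 3.09%, and Tubb2a, at 5.57% and 5.55%, overlapped between groups. The summed beta tubulin level was 255.8 ± 2.42 FPKM in Con and 297.6 ± 5.39 in EX. Gamma tubulin did not move with them, since Tubg1, the main gene, gave -0.05 (SE 0.06, adjusted p = 0.622) and Tubg2 0.04 (adjusted p = 0.923).

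The 3 most abundant tubulin genes all rose, and the 250 bases before the start of each are given to show what their promoters have in common and what they do not. They are from RefSeq on GRCm38.p6 and written in the direction of the gene: Tuba4a at chr1:75219295-75219544 (-), Tuba8 at chr6:121210484-121210733 (+) and Tubb4b at chr2:25224703-25224952 (-). Capitals mark each match, on either strand, to CCAAT (bound by NF-Y), GGGCGG (bound by SP1), TATAAA (the TATA box), CAGCTG (an E-box), AAGGTCA (a nuclear receptor element) or the MEF2 motif, which do not overlap here.
Tuba4a: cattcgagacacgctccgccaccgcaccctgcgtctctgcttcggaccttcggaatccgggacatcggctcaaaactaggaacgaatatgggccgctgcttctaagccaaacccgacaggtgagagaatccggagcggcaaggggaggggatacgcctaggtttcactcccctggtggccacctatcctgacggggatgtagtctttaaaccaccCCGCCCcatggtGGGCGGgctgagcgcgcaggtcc
Tuba8: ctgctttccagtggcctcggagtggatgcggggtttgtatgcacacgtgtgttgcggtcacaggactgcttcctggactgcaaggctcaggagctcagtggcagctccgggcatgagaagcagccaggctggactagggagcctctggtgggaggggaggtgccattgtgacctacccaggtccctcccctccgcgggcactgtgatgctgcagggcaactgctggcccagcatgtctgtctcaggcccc
Tubb4b: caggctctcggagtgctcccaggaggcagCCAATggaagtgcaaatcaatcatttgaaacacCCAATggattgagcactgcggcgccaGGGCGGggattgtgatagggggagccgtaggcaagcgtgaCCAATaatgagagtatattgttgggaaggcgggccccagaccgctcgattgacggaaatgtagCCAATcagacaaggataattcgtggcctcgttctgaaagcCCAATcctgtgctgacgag

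The GC content of these regions was 61.6% for Tuba4a, 63.6% for Tuba8 and 54.4% for Tubb4b, each above the median of 52.4% over all regions. The Tubb4b region held 5 matches to CCAAT, which start 221, 188, 122, 59 and 19 bases before the gene's start, and 1 to GGGCGG. The Tuba4a region held 2 matches to GGGCGG, 35 and 23 bases before the start, and the Tuba8 region held no match to any of the motifs searched. Over 32851 such regions, CCAAT was found in 33.8% and GGGCGG in 32.7%. An upstream region was found by symbol for 56 of the 75 genes, with 62 regions in all, and 41.9% of them held CCAAT and 64.5% GGGCGG. The TATAAA sequence was in 9.68% of the members' regions against 12.4% of all, CAGCTG in 6.45% against 13.0%, and AAGGTCA and the MEF2 motif in none of them against 4.08% and 1.69%.

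The transport kinesins were compared with the mitotic kinesins. Of 11 transport kinesins tested, Kif3c rose, Kif1b and Kif13b fell and 8 did not pass, with a median log2 fold change of 0.01. Over all genes tested 9.11% were higher and 8.8% lower. With length offsets 1 transport kinesin, Kif3c, was higher and 0 were lower, beside 8.65% and 7.56% of all genes. The summed level of the transport kinesins was 1812 to 1821 CPM in Con and 1764 to 1795 in EX. No mitotic kinesin reached the filter.

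Kif1c (16562), a kinesin-3 that carries vesicles and integrins, was the most abundant kinesin, at 804.6, 780.4 and 780.3 CPM in Con and 784.5, 797.6 and 794.7 in EX. The groups overlapped and the log2 fold change was 0.01 (SE 0.03, adjusted p = 0.914). Its FPKM went the other way, from 143.1 ± 2.003 to 131.7 ± 1.85 with no overlap. The length that counts and FPKM imply for its transcripts was 5.57, 5.57 and 5.64 kb in Con and 5.78, 5.88 and 5.98 kb in EX, a difference of 5.10%, and limma called Kif1c lower on FPKM (adjusted p = 0.045) and on TPM (adjusted p = 0.017).

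Kif1b (16561), which carries mitochondria and synaptic vesicle precursors, stood at 547.9, 562.8 and 570.7 CPM in Con and at 518.4, 489.6 and 497.7 in EX. It fell by 0.16 on the log2 scale (SE 0.04, adjusted p = 1.7e-03), and the groups did not overlap, but with length offsets it was at -0.09 and did not pass (adjusted p = 0.086). Kif13b (16554), a kinesin-3 that carries phosphoinositide-bound cargo, had 36.7, 36.8 and 38.3 CPM in Con and 30.5, 32.3 and 33.7 in EX. Its fall was 0.21 (SE 0.06, adjusted p = 0.010). Without EX replicate 1 its adjusted p was 0.064, with DESeq2 0.062, and with length offsets, at -0.13, it was 0.145.

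Kif3c (16570), a motor subunit of kinesin-2, was the one kinesin that rose. It was measured at 86.2, 87.2 and 89.0 CPM in Con and at 100.5, 106.6 and 102.2 in EX, with no overlap and a log2 fold change of 0.24 (SE 0.04, adjusted p = 2.2e-04). With limma on TPM it was at 0.14 and did not pass (adjusted p = 0.064). The other kinesin-2 motors did not pass, Kif3a at 0.08 (adjusted p = 0.657) and Kif3b at -0.03 (adjusted p = 0.886), and both were far lower per length, at 2.05 and 1.77 FPKM against 14.5 for Kif3c.

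Kif5b, the kinesin-1 heavy chain of most tissues, took 97.8% of the heavy chain FPKM in Con and 97.2% in EX, and did not pass at 0.06 (adjusted p = 0.514). EX replicate 1 stood high for it, at 119.0 CPM, with the other EX libraries at 97.0 and 99.2. The neuronal heavy chain Kif5a lay under the filter with 14, 17 and 19 counts in Con against 26, 28 and 24 in EX, and its adjusted p was 0.138 in the fit without a filter. Of the kinesin light chains, which join cargo to kinesin-1, none of 3 tested passed, with log2 fold changes of -0.10 for Klc1, 0.07 for Klc2 and 0.11 for Klc4, of which Klc2 was at -0.02 with limma on TPM. Klc1 and Klc2 were at like levels per length, 30.9 and 31.1 FPKM.

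Among the 12 other kinesins, 3 were tested. Kif26a (668303), an atypical kinesin without motor activity, was at 12.2, 12.7 and 15.4 CPM in Con and 11.0, 11.1 and 10.6 in EX. It fell by 0.30 (SE 0.10, adjusted p = 0.031), and Con replicate 3 stood above the other Con libraries. Without Con replicate 3 the value was -0.19 (adjusted p = 0.242), without EX replicates 1, 2 or 3 the adjusted p was 0.070, 0.064 and 0.112, and with DESeq2 it was 0.140. It also missed the threshold with limma on log2(FPKM + 0.1), log2(FPKM + 1) and TPM (adjusted p between 0.063 and 0.102) and with length offsets (0.098), so 9 of its 15 alternatives ended the call. Kif21a, a kinesin that restrains microtubule growth, gave -0.00 (adjusted p = 0.975) and Kif2a, a microtubule depolymerase, 0.04 (adjusted p = 0.802).

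The mitotic kinesins were low in both groups, with at most 28 counts in any library. The 13 genes together held 82, 83 and 96 counts in the Con libraries and 93, 100 and 104 in the EX libraries, or 5.28 to 6.02 CPM in Con and 5.87 to 6.60 in EX, which overlap. Their median log2 fold change was 0.20 in the fit without a filter, beside -0.0035 over the 16716 genes in it. None of the 13 was called.

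Kif20a, a motor of the midbody, came closest, with 7, 9 and 7 counts in Con against 15, 18 and 12 in EX. Its log2 fold change was 0.91 (standard error 0.37) with an adjusted p of 0.113. Kif18b, a plus-end depolymerase, had 0, 0 and 1 counts in Con against 2, 2 and 3 in EX. Kif22, the chromokinesin, had 3 in each Con library and 4, 5 and 4 in EX. These 3 of the 13 did not overlap between groups, with EX above Con, beside 14.0% of the 5833 genes under the filter in either direction and 7.22% with EX above. The counts of Kif18b and Kif22 were at or near the limit that a count of 0 allows.

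The other 10 mitotic kinesins overlapped between groups. Kif11, the motor that separates the spindle poles, had 16, 10 and 13 counts in Con against 8, 8 and 14 in EX, and Kif18a, which damps chromosome oscillation, had 18, 12 and 28 in Con and 22, 21 and 26 in EX. Kif4, another chromokinesin, had 6, 4 and 4 against 3, 2 and 6, Kif23 of the central spindle 7, 7 and 8 against 5, 8 and 6, and Kif20b of the midbody 2, 12 and 6 against 4, 6 and 4. Of these 5, 4 had a negative log2 fold change and Kif18a a positive one, and none passed. Kifc1, a minus-end motor that bundles spindle microtubules, had 8, 5 and 5 against 11, 10 and 8, and its copy Kifc5b 10, 16 and 17 against 15, 12 and 14. The counts of both were whole in every library, and how alike the copies are was not computed. Kif14 had 1, 1 and 2 against 1, 4 and 2, Kif15 3, 2 and 0 against 3, 3 and 3, and Kif2c 1, 2 and 2 against 0, 1 and 2.

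**Figure D4:**
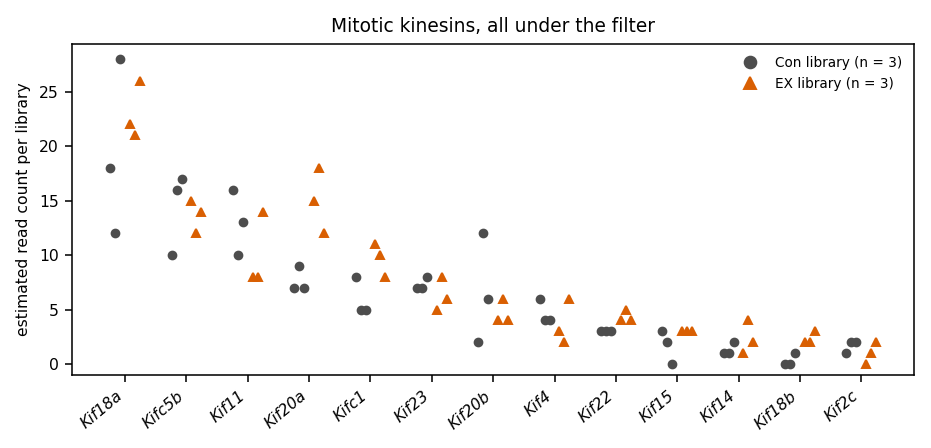
Estimated read counts of the 13 mitotic kinesins in each library (circles Con, triangles EX, n = 3 each), in order of level. No gene exceeds 28 counts in a library, and apart from Kif20a, Kif18b and Kif22 the circles and triangles overlap.

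Over all 32 genes under the filter, none was called in the fit without a filter, which called 3.15% of the 5833 genes under the filter and 12.0% of all 16716 genes in it. Among these 32, 3 had an unadjusted p under 0.05, Kif20a, Kif5a and Kif26b, and the lowest adjusted p was 0.113. DESeq2 called 0, but its default filter can leave genes of low count without an adjusted p, and such genes were counted as not called. Of 20 other markers of dividing cells, 3 were past the filter, of which 0 passed the test (edgeR, adjusted p), and in the fit without a filter only Mki67 was called, with 0.789, 0.318 and 0.439 CPM in Con and 1.51, 1.46 and 1.27 in EX (adjusted p = 1.4e-03). Their summed level was 22.2 to 25.8 CPM in Con and 26.9 to 30.1 in EX.

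In cytoplasmic dynein 1, the heavy chain fell, though not with length offsets, and 3 of its other subunits did not pass. Dync1h1 (13424), which holds the motor domain, had 3148, 3693 and 3570 counts in Con against 3111, 3143 and 3158 in EX. In CPM, which takes account of the larger EX libraries, it stood at 225.8, 234.9 and 223.9 in Con and at 196.2, 200.1 and 200.5 in EX. The log2 fold change was -0.20 (SE 0.04, adjusted p = 3.6e-04), and the groups did not overlap. With length offsets it was -0.08 and did not pass (adjusted p = 0.199). The intermediate chain Dync1i2, which holds 99.8% of intermediate chain FPKM in Con and 99.5% in EX, gave 0.05 (adjusted p = 0.539; -0.04 with limma on TPM), and the light intermediate chains Dync1li1 and Dync1li2 gave -0.01 (adjusted p = 0.914) and -0.04 (adjusted p = 0.554). Dync1i1, the neuronal intermediate chain, was under the filter. The ciliary dynein 2 gene past the filter, Dync2li1, gave 0.14 (adjusted p = 0.664).

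Of 8 dynein light chains tested, 2 rose and 6 did not pass, beside 9.11% of all genes tested that were higher and 8.8% that were lower. Dynll1 (56455) and Dynll2 (68097) encode the LC8 light chain, which dimerises many proteins in and outside dynein. Dynll1 was at 16.4, 14.6 and 16.8 CPM in Con and 20.3, 19.0 and 24.4 in EX, with EX replicate 3 the highest, and rose by 0.41 (SE 0.09, adjusted p = 1.1e-03), although with limma on TPM it missed the threshold at 0.31 (adjusted p = 0.056). Dynll2, at 103.1 ± 2.69 FPKM in Con against 9.54 ± 0.748 for Dynll1, is the main LC8 gene of this muscle. It rose by only 0.12 (SE 0.04, adjusted p = 0.024), from 218.1, 214.3 and 222.4 CPM to 240.3, 233.8 and 237.4, and its FPKM overlapped between groups. The call did not hold without Con replicate 2 (adjusted p = 0.125), EX replicate 1 (0.079) or EX replicate 3 (0.089). Nor did it hold with scaling without the 20 most abundant genes (adjusted p = 0.074), with limma on log2(FPKM + 0.1), at 0.063 (adjusted p = 0.292), or with limma on TPM, at 0.028 (adjusted p = 0.643).

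Dynlrb1, of the roadblock family and the most abundant light chain per length at 115.2 FPKM, did not pass at -0.02 (SE 0.05, adjusted p = 0.878). Of the Tctex family, Dynlt3 gave 0.09 (adjusted p = 0.254). Dynlt1a, Dynlt1b, Dynlt1c and Dynlt1f are copies of 1 gene with counts that were not whole in any library, and the split between them is uncertain. Their log2 fold changes were 0.18, -0.15, -0.26 and -0.22, none past the threshold, with the lowest adjusted p at 0.077 for Dynlt1c. Dynlt1c did pass as lower with scaling without the 20 most abundant genes, with limma on TPM, without Con replicate 3 and with length offsets, and Dynlt1f without Con replicate 2.

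Change went with transcript length across all genes, and this bears on the 4 members that fell. In the eighth of genes with the shortest transcripts the median log2 fold change was 0.06 and 3.75% were called lower, while in the eighth with the longest, over 5.33 kb, the median was -0.07 and 21.1% were called lower. Kif26a at 6.60 kb, Kif1b at 7.38 kb, Kif13b at 8.44 kb and Dync1h1 at 14.1 kb are all in the longest eighth. Offsets took out the trend of each library with length, and with it any difference between groups that goes with length, whatever its source. With this alternative, added after seeing the data, none of the 4 passed. Kif26a was then at -0.23, and the other three are given with their levels.

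Of the 8 genes that rose, 7 were still called, at 0.45 for Tuba4a, 0.22 for Tuba8, 0.26 for Tubb4b, 0.24 for Tubb2a, 0.39 for Tubb6, 0.39 for Dynll1 and 0.30 for Kif3c, itself in the longest eighth at 6.53 kb. Dynll2 missed at 0.10 (adjusted p = 0.060). Dynlt1c was then called lower, and over all genes 16.2% were called, 8.65% higher and 7.56% lower. The cause of the trend was not tested.

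**Figure D5:**
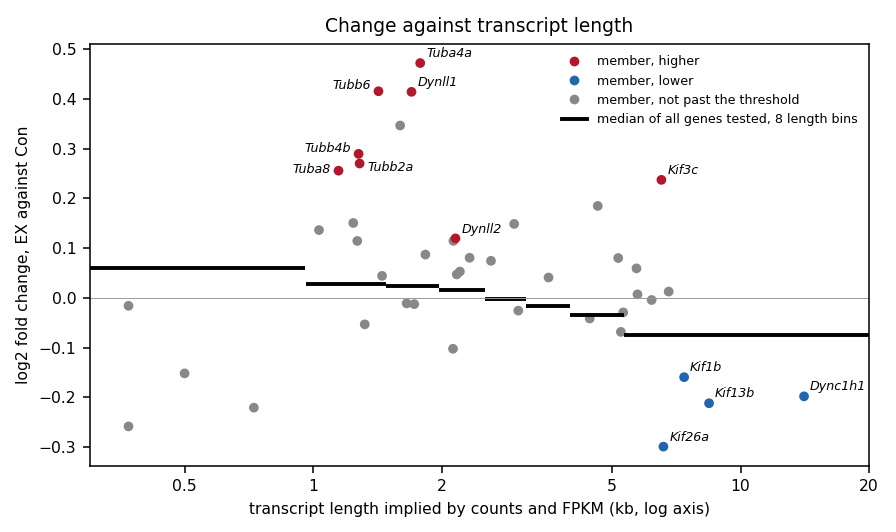
Log2 fold change (EX against Con) of the 43 genes past the filter against the transcript length implied by counts and FPKM, on a log axis in kb; horizontal lines are the medians of all 10883 genes tested in 8 bins of length. The line steps down from 0.06 to -0.07, the 4 genes that fell lie in the last bin and Kif3c is the one of the 8 that rose in it.

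The partners of these genes were counted from lists of the pathway, and the counts are to be read against the 9.11% of all genes tested that were higher and the 8.8% that were lower. For dynactin and for the dynein regulators and adaptors the share called in either direction was close to the 17.9% over all genes. By direction, dynactin had 2 of 12 higher and 0 lower. With length offsets it had 3 higher and 0 lower, and the 23 regulators and adaptors 1 and 0, with 16.2% of all genes called. Of 20 tubulin chaperones, which fold tubulin and assemble the dimer, 6 rose and 0 fell, with a median of 0.07, and all 6 were subunits of the CCT chaperonin: Cct6a (0.23, adjusted p = 1.4e-04), Cct5 (0.20, adjusted p = 5.5e-04), Tcp1 (0.19, adjusted p = 9.7e-04), Cct7 (0.19, adjusted p = 2.6e-03), Cct3 (0.14, adjusted p = 0.026) and Cct4 (0.16, adjusted p = 0.030). With length offsets the first 4 of these remained past the threshold, while Cct3, at 0.11 (adjusted p = 0.074), and Cct4, at 0.13 (adjusted p = 0.071), did not. CCT folds actin as well as tubulin. The CCT subunits Cct2 (0.07, adjusted p = 0.266) and Cct8 (0.08, adjusted p = 0.175) were among the 14 that did not pass. So were the tubulin-specific cofactors Tbca to Tbce and the prefoldin subunits.

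Of 16 enzymes that modify tubulin, 1 passed, Agbl5, a carboxypeptidase that takes glutamates off the tail, which fell by 0.41 (SE 0.13, adjusted p = 0.030). With length offsets Agbl5 still passed, and Ttll7 passed as higher at 0.14 (adjusted p = 0.012). The enzymes of the tyrosine cycle did not pass, with Vash1 at 0.04 (adjusted p = 0.817), its partner Svbp at 0.15 (adjusted p = 0.437) and the ligase Ttl at 0.04 (adjusted p = 0.826). Of 25 microtubule associated proteins, 2 rose and 5 fell, with a median of -0.05. Dst and Macf1, giant linkers between microtubules and other filaments, fell by 0.37 (adjusted p = 1.1e-08) and 0.22 (adjusted p = 5.4e-04), Map4, a lattice-binding protein of muscle and other tissues, fell by 0.26 (adjusted p = 3.4e-06), and Clasp2, which anchors plus ends, fell by 0.21 (adjusted p = 7.9e-04). Map1lc3a, the LC3 of autophagosomes, rose by 0.29 (adjusted p = 1.2e-04). With length offsets the count turned to 5 higher and 3 lower. Dst, Map4, Clasp2, Map1lc3a and Mtus1 still passed, Macf1, at 17.4 kb, and Camsap1 did not (adjusted p = 0.226 and 0.326), and Map1a, Mapre1 and Spast then passed as higher (adjusted p = 0.026, 0.011 and 0.016).

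Of 12 dynactin subunits, which couple dynein to cargo, 2 rose, Capza2 (0.19, adjusted p = 4.7e-04) and Capzb (0.18, adjusted p = 2.2e-03), and 0 fell. With length offsets Actr10 also passed as higher, at 0.14 (adjusted p = 0.032), which made 3. Capza2 and Capzb are capping proteins that muscle also uses on actin filaments at the Z-disc. Among 23 dynein regulators and motor adaptors, Rilp (0.20, adjusted p = 0.018) and Plekhm2 (0.16, adjusted p = 0.044), which link lysosomes to motors, rose. Trak2, an adaptor of mitochondria, fell by 0.16 (adjusted p = 6.0e-03) and Fyco1, an adaptor of autophagosomes, fell by 0.17 (adjusted p = 1.6e-03). With length offsets neither passed, Trak2 at -0.10 (adjusted p = 0.092) and Fyco1 at -0.095 (adjusted p = 0.088). Rilp also missed the threshold with them, at 0.17 (adjusted p = 0.054). Of 13 genes of the gamma tubulin ring complex and centrosome, Akap6, which organises microtubules at the muscle nuclear envelope, fell by 0.17 (adjusted p = 0.011, and 0.329 with length offsets), and none rose. Of the 3 genes listed as other tubulins, the 1 tested did not pass.

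Other cell types and fibre states moved with the groups. All 8 markers of slow fibres were higher in EX, at a summed 141.7 to 148.8 CPM in Con and 413.7 to 443.8 in EX, with Myh7 between 0.891 and 1.19 CPM in Con and between 96.7 and 110.6 in EX. Of 5 embryonic and regenerating fibre markers tested, 4 were higher, at a summed 561.1 to 626.4 CPM in Con and 1664 to 1762 in EX over the whole list. Macrophage markers were higher for 6 of 7 tested, at 42.5 to 47.8 CPM in Con and 77.6 to 85.3 in EX, adipocyte markers for 5 of 5, and fibroblast and tendon markers for 6 of 11, with 0 lower. The part of these cells in the rise of the tubulins was not tested, and a difference in the muscle sampled cannot be told apart from training here either.

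Markers of Schwann cells and axons, which are rich in microtubules, were lower for 4 of 5 tested, with 112.0 to 124.5 CPM in Con and 86.1 to 89.7 in EX, and the neurofilament genes Nefl, Nefm and Nefh had 0 to 2 counts in each library. Endothelial markers were lower for 6 of 10 and higher for 1, and satellite cell markers lower for 1 of 7. Of the platelet markers Pf4 alone was past the filter and was higher, and the platelet isotype Tubb1 held 0 to 2 counts. Of the neutrophil markers 1 was tested and did not pass.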

How the data were processed

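The data are 6 RNA sequencing libraries of mouse hind leg muscle, 3 Con and 3 EX. Per the paper's methods, the authors extracted total RNA with TRIzol, sequenced paired 150 bp reads on the DNBseq platform, removed low-quality reads, matched the rest to GRCm39 with HISAT and tested with DESeq. The submitters' processing notes name GRCm38.p6, cutadapt, featureCounts and MultiQC instead, so the build is not settled. The table gives no positions, and the sequences printed are from GRCm38. Per gene and library, the authors deposited an estimated count with its FPKM and TPM. The estimated counts are not normalized, and 4.18% to 4.44% of values in a library were not whole (tolerance 1e-06). The authors' 6 columns of group means were not used. No batch, strand setting or counting parameter was given in the sources used here.

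Counts were rounded, scaled by TMM and tested with edgeR 4.0.16 (glmQLFit, glmQLFTest) in R 4.3.3, group only, over 10883 genes whose mean reached 1 FPKM. The common biological coefficient of variation was 0.0328. Genes under the filter were read from the same fit over 16716 genes. Transcript length is proportional to counts divided by FPKM and by the library's total counts, pooled over the 6 libraries except where given per library. Motifs were searched on both strands, and identity is over global alignments. The scripts were tested on simulated data with known changes.

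Alternatives were DESeq2 1.42.0, limma 3.58.1 on log2(FPKM + 0.1), log2(FPKM + 1) and log2(TPM + 0.1), whose fold changes are on that scale and understate low genes, RLE scaling, scaling without the 20 most abundant genes, no filter, a mean of 5 FPKM, a replicate block, and each library left out. Offsets for length were added after seeing the data.

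The members and lists were chosen with earlier results of these data known. Named were each member past the threshold, the gene of highest FPKM in each role, each mitotic kinesin and, of each partner list, up to 5 genes past the threshold by adjusted p. Other members and partners named (among them Cct4, Vash1, Svbp, Ttl and those that passed only with length offsets) were chosen after their values were seen. Some items are not reported here.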

Additional observations from a re-analysis of the deposited data

How the results depend on the processing

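Against 8 higher and 4 lower members, limma on TPM gave 4 higher, DESeq2 and a filter of mean 5 FPKM each gave 2 lower, and the length offset gave 1 lower. Leaving out 1 library at a time gave 7 to 9 higher and 2 to 5 lower, and 2 lower without EX replicate 1. Over all genes, DESeq2 called 643 higher and 585 lower, against 991 and 958. The sources used here do not say whether the replicate numbers pair mice. Same-numbered libraries correlated at -0.0841, -0.0518 and -0.0727 in their deviations from the group means, which 3 libraries per group are too few to decide. With the replicate block 909 genes were called higher and 873 lower, among them 8 higher and 4 lower members, the same 12. Tuba1b and Dynlt1c passed without Con replicate 3, and Dynlt1f without Con replicate 2.

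The mitotic kinesins' median of 0.20 was 0.014 with limma on log2(FPKM + 1) and 0.10 to 0.24 with 1 library left out. The filter of mean 5 FPKM left none of them. The transport kinesins' median of 0.0071 was -0.074 and -0.051 with limma on log2(FPKM + 0.1) and log2(FPKM + 1), -0.11 with limma on TPM, 0.063 with the length offset, and -0.025 to 0.026 with 1 library left out. The difference in the share of Tubb4b, 0.743 points, was 1.27 as a share of counts and 0.650 to 0.794 with 1 library left out. That of Tuba4a stayed between 4.07 and 4.63 with 1 library left out.

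Among changes that did not pass, Kif1c turned to -0.017 with scaling without the 20 most abundant genes, -0.0071 with a filter of mean 5 FPKM, -0.12, -0.12 and -0.16 with limma on log2(FPKM + 0.1), log2(FPKM + 1) and TPM, and ran from -0.0034, without Con replicate 2, to 0.018 with 1 library left out. Kif21a turned to 0.058 with the length offset and ran from -0.063 to 0.046, without Con replicate 1, with 1 library left out. Klc2 turned to -0.019 and Dync1i2 to -0.037 with limma on TPM, and Dync1i2 to -0.0018 with limma on FPKM at either pseudocount. With 1 library left out, Dync2li1 ran from -0.081, without EX replicate 1, to 0.26, and Dynlrb1 from -0.049 to 0.013, without Con replicate 1. The cause was not tested. Depth limits the mitotic kinesins, with at most 28 counts in a library.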

Other observations

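Beyond the members that passed, the Kif1 genes of kinesin-3 showed a shift in their balance. Kif1c took 59.4%, 58.0% and 57.7% of their summed counts in Con and 60.1%, 61.9% and 61.4% in EX, with no overlap, and Kif1b the rest but for Kif1a, at 0.114% to 0.126% on average. As shares of FPKM the groups overlapped, at 64.9% ± 1.03 (SD, n = 3) in Con and 66.4% ± 0.718 in EX for Kif1c. The length implied for Dynlt1f also differed, by 8.15% between groups, among counts that were not whole.

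The neuronal heavy chain Kif5a held 0.835% ± 0.0585 of kinesin-1 heavy chain FPKM in Con and 1.33% ± 0.280 in EX, with no overlap, on 14 to 19 counts in a Con library and 24 to 28 in an EX library.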
